A study of Homo sapiens with 4 samples.

Results

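The genes described here encode the proteasome, the protease complex that degrades ubiquitin-tagged proteins. They were chosen by name alone, as the genes whose symbol is PSM, a letter from A to G and a number, which leaves out pseudogenes and antisense transcripts. This gave 48 of the 61806 genes in the deposited table. Of these 48, 45 reached 1 FPKM in at least 1 library of each comparison, and PSMA2, PSMA8 and PSMB11 did not. FPKM are the counts of a gene scaled to its exonic length and to the total of the library.

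RNA was sequenced from JJ012, a human chondrosarcoma cell line, and 143B, a human osteosarcoma cell line. All cells were kept in suspension, without attachment. Each line gave 1 untreated control library and 1 library from cells given 1 mM melatonin for 72 h, so the study holds 4 libraries, 1 per condition. With no replicate cultures, no difference below has a test or a p-value. The 95% intervals are exact (Clopper-Pearson) and cover counting error only, not the variation between cultures.

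The proteasome is built around a barrel, the 20S core, made of rings of alpha subunits that gate the entry and rings of beta subunits that hold the proteolytic sites. A 19S cap at the end of the barrel binds ubiquitin chains, removes them, and unfolds and feeds in the substrate with a ring of ATPases. Cells exposed to interferon swap the catalytic beta subunits for PSMB8, PSMB9 and PSMB10, which form the immunoproteasome and shift the peptides made for antigen presentation. Other caps, the PSME activators, take the place of the 19S cap on some cores. The genes of the complex are known to be induced together by the transcription factor NFE2L1 when proteasome activity is short.

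The libraries held between 15889564 and 19218343 counts, and 3 counts, the floor used here, came to between 0.156 and 0.189 CPM (counts scaled to the library total, with no correction for length). The share of mitochondrially encoded transcripts was 6.78% in untreated and 4.35% in melatonin-treated JJ012, and 1.63% and 2.46% in 143B. Of the cartilage markers, SOX9 alone reached 1 FPKM, at 15.06 FPKM in untreated and 6.16 FPKM in melatonin-treated JJ012 and at 15.48 and 12.09 FPKM in 143B, while COL2A1 stayed at or below 0.04 FPKM and ACAN at or below 0.11 FPKM in every library. Of the bone markers, RUNX2 lay between 2.59 and 4.28 FPKM in all 4 libraries, and SPP1 was at 79.39 FPKM in untreated JJ012 and 0.40 FPKM in untreated 143B. BGLAP was at 0.81 and 0.26 FPKM in JJ012 and 1.44 and 1.21 FPKM in 143B, untreated and with melatonin. The bone genes SP7, ALPL and IBSP stayed at or below 0.36 FPKM in every library. Of the markers of other cells, the leukocyte marker PTPRC was at most 0.14 FPKM and the epithelial marker EPCAM at most 1.40 FPKM, while the endothelial marker PECAM1 was at 1.81 and 0.66 FPKM in JJ012 and 2.40 and 2.04 FPKM in 143B. The defining cartilage matrix genes were thus near 0 in the chondrosarcoma line, and SOX9 was at like levels in the untreated lines. SOX9 and PECAM1 were both lower in melatonin-treated than in untreated JJ012, and their part in the results was not tested.

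The members lie on 17 chromosomes, with 8 on chromosome 14 and 7 on chromosome 17. A pair of genes share DNA directly, since PSMB8 and PSMB9, on opposite strands of chromosome 6, overlap by 544 bases. PSME1 and PSME2, whose products form a single activator ring, lie on opposite strands of chromosome 14 with 4394 bases between the genes. A promoter window from 250 bases before to 50 bases after a RefSeq start site (GRCh38.p14) was at hand for 42 of the 48 members. A total of 10 motifs of at most 9 letters were searched on both strands, a choice made after the values of the genes were known. The core of the antioxidant response element, TGACNNNGC, which NFE2L1 and NFE2L2 bind, stood in 15 of the 42 (35.7%), against 16.1% of all 27305 genes with a window. CCGGAAG, read by ETS factors, also stood in 15 (35.7%), against 12.2% of all. GAAANNGAA, the core read by interferon regulatory factors, stood in 8, against 9.86% of all, namely PSMA4, PSMB4, PSMB8, PSMB10, PSMC2, PSME1, PSME2 and PSMG4. TTCNNNGAA, the interferon-gamma activated site, also stood in 8 members, against 9.38% of all genes, and PSMB8 held both. CCAAT stood in 47.6% of members and 39.7% of all genes, AAGATGGCG in 7.14% and 2.14%, GCGCATGCG in 2.38% and 2.34%, and CACGTG in 7.14% and 8.77%. TGACGTCA (2.25% of all genes) and GAANNTTC (8.21%) stood in 0 members. Matches of TTCNNNGAA, GAAANNGAA and GAANNTTC can overlap each other, as can those of TGACNNNGC and TGACGTCA. The members had 1.21 windows each and all genes 1.29. A match is a description of the letters, not a bound site.

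Among the windows, 6 are shown because the results turn on these genes. The first 4 belong to interferon-inducible members and are shown because they hold the interferon regulatory factor motif, in capitals. They are PSMB8 (chr6:32843998-32844297, minus strand), PSMB10 (chr16:67936801-67937100, minus strand), PSME1 (chr14:24135944-24136243, plus strand) and PSME2 (chr14:24146561-24146860, minus strand). The other 2 are PSMB3 (chr17:38752491-38752790, plus strand), the core beta gene with the lowest ratio after melatonin in JJ012, and PSME4 (chr2:53970944-53971243, minus strand), the member with the highest, each with the antioxidant response element core in capitals. All are written 5′ to 3′ on the strand of the gene.
PSMB8: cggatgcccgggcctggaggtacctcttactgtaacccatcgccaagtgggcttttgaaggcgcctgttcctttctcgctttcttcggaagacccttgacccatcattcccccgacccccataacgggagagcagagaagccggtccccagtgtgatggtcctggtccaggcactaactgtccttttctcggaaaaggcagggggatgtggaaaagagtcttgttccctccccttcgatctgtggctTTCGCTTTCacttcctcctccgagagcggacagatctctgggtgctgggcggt
PSMB10: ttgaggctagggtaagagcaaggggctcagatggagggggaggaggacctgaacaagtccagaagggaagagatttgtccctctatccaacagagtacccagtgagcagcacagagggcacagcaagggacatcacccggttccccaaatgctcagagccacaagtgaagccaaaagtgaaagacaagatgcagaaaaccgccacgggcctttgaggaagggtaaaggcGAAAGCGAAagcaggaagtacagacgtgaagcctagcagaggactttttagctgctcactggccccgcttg
PSME1: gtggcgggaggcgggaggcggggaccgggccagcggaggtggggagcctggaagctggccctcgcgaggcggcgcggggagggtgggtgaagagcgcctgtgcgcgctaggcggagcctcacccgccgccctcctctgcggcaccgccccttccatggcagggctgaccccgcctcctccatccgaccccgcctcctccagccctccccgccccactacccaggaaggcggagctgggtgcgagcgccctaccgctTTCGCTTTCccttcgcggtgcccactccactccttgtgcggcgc
PSME2: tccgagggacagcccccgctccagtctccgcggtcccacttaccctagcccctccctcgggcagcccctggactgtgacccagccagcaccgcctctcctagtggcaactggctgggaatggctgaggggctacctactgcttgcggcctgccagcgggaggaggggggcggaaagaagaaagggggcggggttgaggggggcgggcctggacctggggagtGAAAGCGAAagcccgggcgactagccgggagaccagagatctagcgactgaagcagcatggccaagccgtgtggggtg
PSMB3: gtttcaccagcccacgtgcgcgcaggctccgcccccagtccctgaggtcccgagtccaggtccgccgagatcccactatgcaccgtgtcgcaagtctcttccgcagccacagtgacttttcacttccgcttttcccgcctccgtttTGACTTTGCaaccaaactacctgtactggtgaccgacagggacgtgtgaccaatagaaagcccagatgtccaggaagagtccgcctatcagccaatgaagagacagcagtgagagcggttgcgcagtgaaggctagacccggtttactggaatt
PSME4: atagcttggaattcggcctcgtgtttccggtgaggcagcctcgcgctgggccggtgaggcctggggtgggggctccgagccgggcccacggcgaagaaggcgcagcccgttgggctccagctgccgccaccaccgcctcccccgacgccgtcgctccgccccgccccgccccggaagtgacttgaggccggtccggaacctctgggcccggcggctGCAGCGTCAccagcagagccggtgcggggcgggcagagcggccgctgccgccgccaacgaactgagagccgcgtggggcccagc
The 4 windows shown for this motif carried the same letters, GAAAGCGAA in PSMB10 and PSME2 and the reverse complement, TTCGCTTTC, in PSMB8 and PSME1. Counted with the start-site base as 0, the first base of the match lay at -3 in PSMB8, -21 in PSMB10, 6 in PSME1 and -28 in PSME2. The window of PSMB9, which is also interferon-inducible, held 0 matches. PSMB8 has a further RefSeq start 632 bases upstream, whose window held 0 matches. The PSME2 window starts from a site 960 bases inside the gene start given in the deposited table.

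Nearly all members were expressed in both lines. Proteasome genes took 0.418% of all counts in untreated JJ012 (95% interval 0.415 to 0.421%), 0.350% in melatonin-treated JJ012 (0.347 to 0.353%), 0.315% in untreated 143B (0.312 to 0.318%) and 0.328% in melatonin-treated 143B (0.325 to 0.330%). The share was thus highest in untreated JJ012 and lower in its melatonin library, while the 143B libraries lay closer together. As a share of TPM (FPKM scaled to a common sum, so that each transcript counts once whatever its length) the same libraries held 0.450%, 0.400%, 0.414% and 0.415%, and untreated JJ012 stood less far above 143B.

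The most abundant member per length was PSMA7, an alpha ring subunit, in all 4 libraries. It stood at 126.10 FPKM in untreated and 89.03 FPKM in melatonin-treated JJ012, and at 173.11 and 168.76 FPKM in 143B. The highest core beta gene was PSMB4, a non-catalytic subunit, at 96.01 and 52.41 FPKM in JJ012 and 62.82 and 74.43 FPKM in 143B. The highest ATPase in JJ012 was PSMC4, at 34.00 and 29.64 FPKM, whereas in 143B PSMC3 led, at 15.35 and 19.07 FPKM. Of the non-ATPase subunits, the ubiquitin receptor PSMD4 was highest in JJ012 at 71.96 and 55.38 FPKM, and the scaffold subunit PSMD2 was highest in untreated 143B at 63.01 FPKM. Subunits that enter the particle in equal number were therefore far from equal in RNA. Within the alpha ring, PSMA6 was at 5.90 FPKM in untreated JJ012, next to 126.10 FPKM for PSMA7. Some of these orders depend on the length used, since the deposited exonic length joins the exons of all transcripts. Per length of the principal transcript, PSMA7 still led in all 4 libraries (221.8 FPKM in untreated JJ012, with PSMA6 at 37.32 FPKM), but PSMC5 led the ATPases in 143B (40.89 FPKM untreated) and PSMD4 led the non-ATPases there (103.0 FPKM untreated).

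PSMA2 was the low exception in the core, with 63, 74, 75 and 68 counts in untreated JJ012, melatonin-treated JJ012, untreated 143B and melatonin-treated 143B, or 0.39 to 0.56 FPKM. Of its GENCODE 29 exon bases, 34.6% lie in exons of other genes (AC010132.2, AC010132.3 and MRPL32), and its deposited exonic length of 8378 bases exceeds the 1487 bases of its principal transcript. Divided by that shorter length, PSMA2 stood at 2.21 to 3.17 FPKM, still the lowest of the alpha ring in each library. The part of the shared exons in this low level was not tested. The testis subunit PSMA8 had 0, 5, 0 and 0 counts in the same library order, and PSMB11, the subunit of the thymus, had 0 counts in every library. A count of 0 does not exclude a true level near the floor of 3 counts used here.

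**Figure D1:**
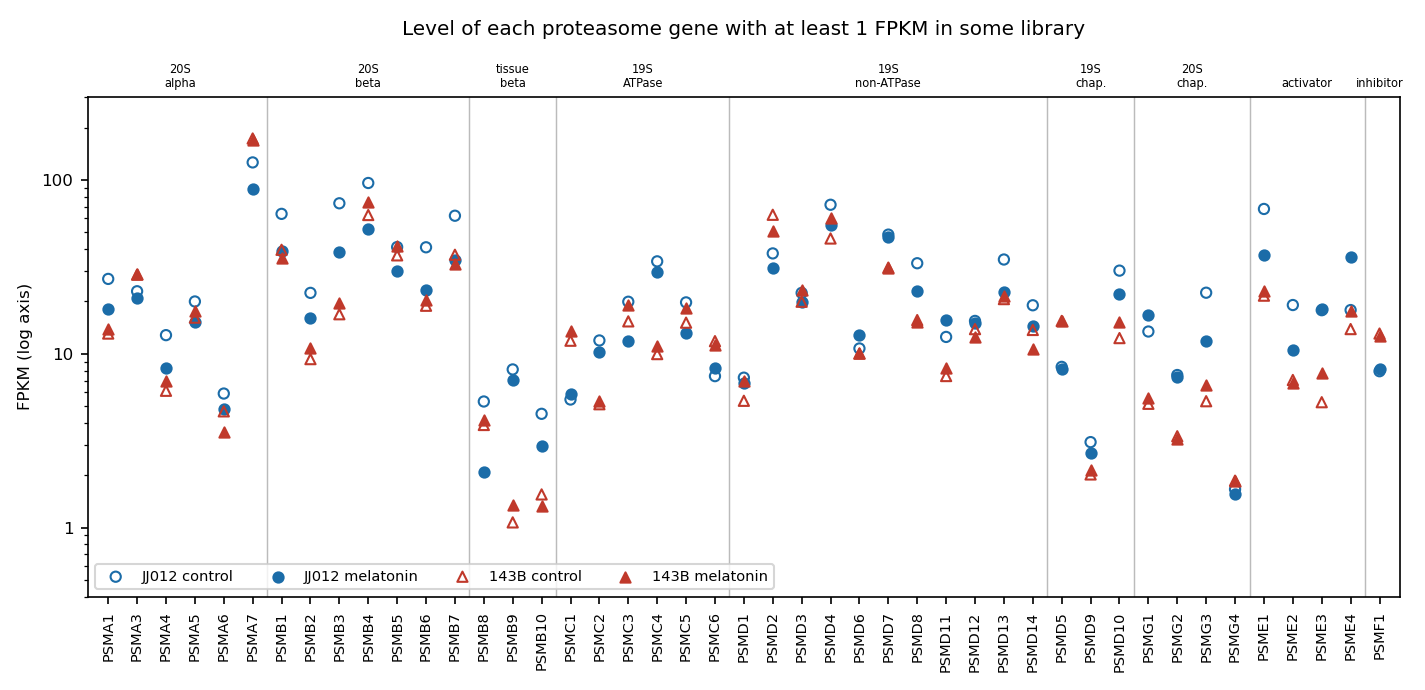
FPKM on a log axis for each of the 45 proteasome genes with at least 1 FPKM in some library, grouped by subcomplex (chap., chaperone; tissue, tissue-specific). Open and filled circles are untreated and melatonin-treated JJ012, open and filled triangles untreated and melatonin-treated 143B, 1 library each. PSMA7 is highest in all 4 libraries, the open circles of the core beta genes PSMB1, PSMB3, PSMB4, PSMB6 and PSMB7 stand above the filled ones, and the 143B triangles lie close together.

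The first comparison asked how proteasome genes differed between melatonin-treated and untreated JJ012 cells. The complex did not move as a block. In such bulk RNA, less transcript per cell and fewer cells that express a gene cannot be told apart. The core beta genes, PSMB8, the interferon-inducible activator genes PSME1 and PSME2 and the chaperone gene PSMG3 were lower with melatonin, most genes of the 19S cap differed less, and PSME4 was about 2-fold higher. On the log2 scale of FPKM plus 1, 11 of the 45 members were at or below -0.58 (the fold threshold of the study), namely PSMB1, PSMB3, PSMB4, PSMB6, PSMB7, PSMB8, PSMC3, PSMD13, PSME1, PSME2 and PSMG3, and 1, PSME4, was at or above 0.58. Over all 15794 genes tested, 18.6% were at or below -0.58 and 19.6% at or above 0.58, so the 11 members (24.4%) were a share near the background and the single higher gene (2.22%) a share below it. In either direction 12 members (26.7%) were past the threshold, against 38.2% of all genes. The median over the members was -0.37, against 0.01 over all genes, and 37 of the 45 (82.2%) were below 0, against 49.4% of all genes. The members' lower values were thus many and mostly small. The contrast between core and cap was smaller with the running median over gene length removed. On that scale the core beta genes had a median of -0.48, the ATPases -0.24 and the non-ATPases -0.20.

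The libraries differed with gene length. In JJ012 the median of all genes ran from -0.22 for exonic lengths under 2000 bases to 0.32 for lengths of 8000 bases or more, and that of the members from -0.81 for the 8 under 2000 bases to -0.04 for the 8 of 8000 or more. In each of the 4 length classes the members' median lay below that of all genes, with -0.43 against -0.20 at 2000 to 4000 bases and -0.26 against 0.09 at 4000 to 8000 bases. With the running median over length removed, the members' median remained at -0.37, but the count at or below -0.58 was 3 (PSMA4, PSMB8 and PSME2), of which 2 were among the 11, and the count at or above 0.58 was 2 (PSME4 and PSMG1). On the TPM scale, where the median of all genes stood at 0.21, the members' median was -0.06, lower than all genes by 0.27, and 5 were at or below -0.58 (PSMB3, PSMB4, PSMB8, PSME1 and PSMG3) and 2 at or above 0.58 (PSMD11 and PSME4). In either direction 5 of 45 members were past the threshold with length removed, against 34.5% of all genes, and 7 of 46 by TPM, against 52.8%. PSMB8 and PSME4 were past the threshold on every one of these scales. The part of length in the other calls was not tested.

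**Figure D2:**
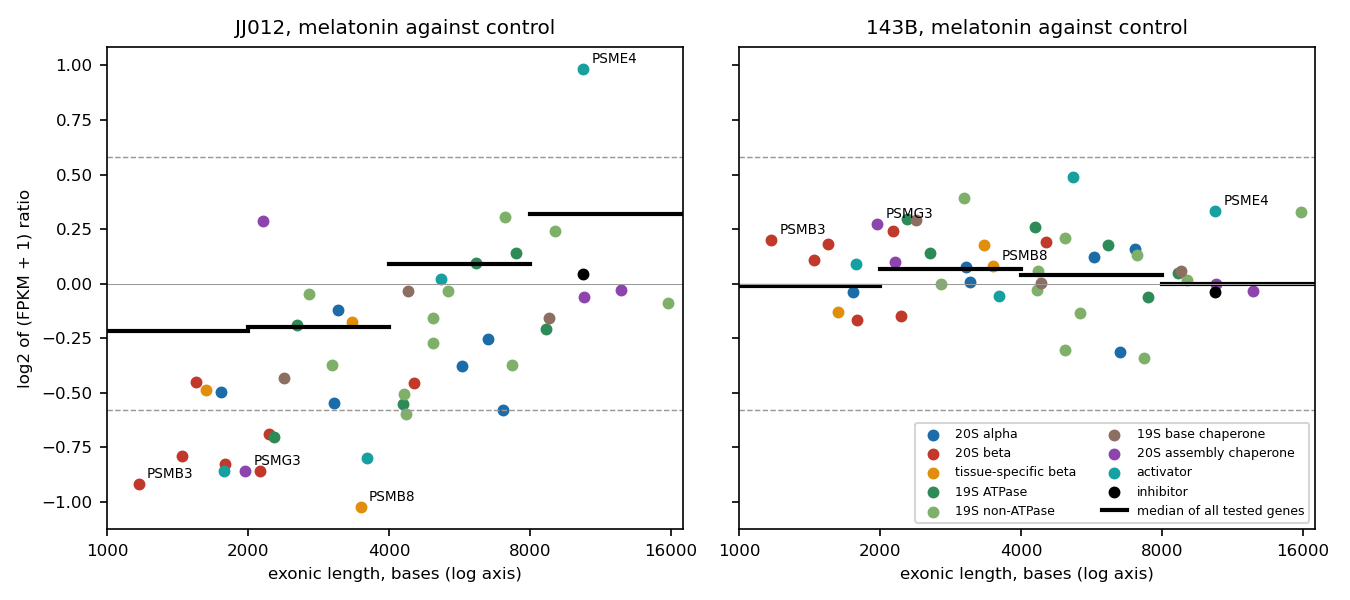
Log2 ratio of FPKM plus 1, melatonin against control, for each of the 45 members (points, by subcomplex) against exonic length in bases on a log axis, in JJ012 (left) and 143B (right). Black bars are the median of all tested genes in each of 4 length classes and dashed lines mark 0.58 and -0.58; in JJ012 the bars climb from -0.22 to 0.32 and most members lie below them, whereas in 143B bars and points stay near 0.

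The alpha ring genes were lower in melatonin-treated JJ012, none past the threshold. The 6 tested had a median log2 ratio of -0.44, from -0.58 in PSMA4 to -0.12 in PSMA3, and the counting intervals of all 6 lay below 0. PSMA4 was at 12.79 FPKM untreated and 8.24 FPKM with melatonin, and in 143B at 6.12 and 6.95 FPKM. It fell just short of the threshold, at -0.5777, and passed it on the CPM scale (-0.63, 95% interval -0.75 to -0.52).

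The core beta genes had the lowest median of any subcomplex, -0.79, and 5 of 7 were past the threshold. With the length trend removed their median was -0.48 and none of the 7 was past the threshold. On that scale the alpha ring stood at -0.38 and the 20S assembly chaperones at -0.36. PSMB3, a non-catalytic subunit, was at 73.37 FPKM untreated and 38.29 FPKM with melatonin in JJ012, and at 16.87 and 19.50 FPKM in 143B. Its log2 ratio in JJ012 was -0.92, and by CPM it was 1.92-fold lower (log2 -0.94, 95% interval -1.07 to -0.81). PSMB4, which closes the beta ring during assembly, was at 96.01 and 52.41 FPKM in JJ012 (log2 ratio -0.86) and at 62.82 and 74.43 FPKM in 143B (log2 ratio 0.24). In PSMB3 and PSMB4 the order of the libraries was thus opposite in the 2 lines. PSMB1, another non-catalytic subunit, was at 63.78 and 39.14 FPKM in JJ012 and 39.62 and 35.60 FPKM in 143B, with log2 ratios of -0.69 and -0.15.

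The constitutive proteolytic sites belong to PSMB5, PSMB6 and PSMB7. PSMB7, the trypsin-like subunit, was at 62.22 FPKM untreated and 34.68 FPKM with melatonin in JJ012 and at 37.10 and 32.88 FPKM in 143B, with log2 ratios of -0.83 and -0.17. PSMB6, the caspase-like subunit, was at 40.96 and 23.24 FPKM in JJ012 and 18.88 and 20.41 FPKM in 143B, with log2 ratios of -0.79 and 0.11. PSMB5, the chymotrypsin-like subunit and the main target of proteasome inhibitor drugs, was at 41.08 and 29.75 FPKM in JJ012 and 36.81 and 41.86 FPKM in 143B. Its log2 ratio of -0.45 in JJ012 did not reach the threshold, though its counting interval lay below 0 (log2 CPM ratio -0.47, 95% interval -0.60 to -0.33). PSMB5 and PSMB2 (22.39 and 16.05 FPKM in JJ012, log2 ratio -0.46) were the core beta genes short of the threshold.

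**Figure D3:**
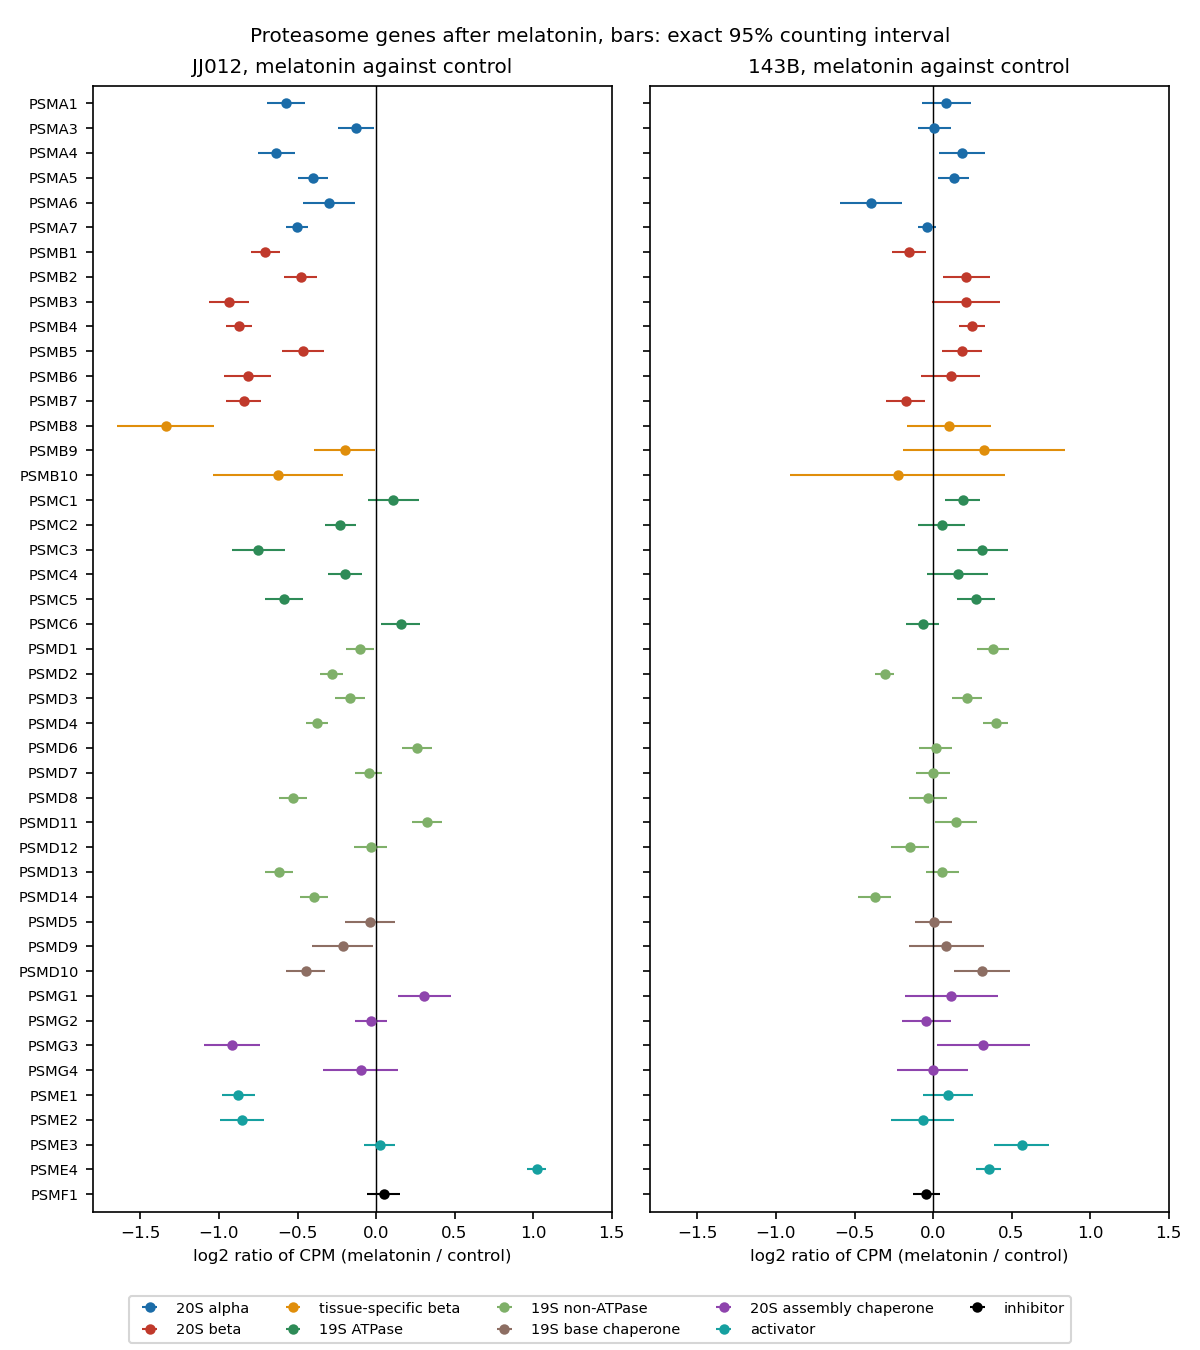
Log2 ratio of CPM, melatonin against control, for the 45 tested members in JJ012 (left) and 143B (right), coloured by subcomplex, 1 library per condition. Horizontal bars are exact 95% intervals for counting error; in JJ012 all 7 core beta genes lie left of 0 and PSME4 stands alone at 1.02, while in 143B the points lie on both sides of 0.

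The immunoproteasome genes did not share a single pattern. PSMB8 was at 5.31 FPKM in untreated JJ012, 2.10 FPKM with melatonin, 3.89 FPKM in untreated 143B and 4.17 FPKM with melatonin, so its JJ012 libraries stood apart while its 143B libraries lay within counting error of each other. By CPM it was 2.53-fold lower in JJ012 (log2 -1.34, 95% interval -1.65 to -1.03), the lowest ratio of all members, and in 143B the log2 ratio was 0.10 (-0.17 to 0.37). PSMB8 shares 20.6% of its exon bases with PSMB8-AS1 and PSMB9 on the other strand, and PSMB8-AS1 had 32 and 10 counts in JJ012 and 12 and 28 in 143B. The strand setting of the counting is not given in the sources used here, so reads of PSMB8 and of its antisense partner cannot be told apart where they overlap.

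PSMB9 was the highest immunoproteasome gene in JJ012, at 8.12 FPKM untreated and 7.07 FPKM with melatonin, and was at 1.07 and 1.34 FPKM in 143B. Its log2 ratio after melatonin was -0.18 in JJ012 and 0.18 in 143B. PSMB10 was at 4.51 and 2.93 FPKM in JJ012 and 1.55 and 1.33 FPKM in 143B, with log2 ratios of -0.49 and -0.13 and only 37 to 141 counts behind each value. Its exons are also shared, 34.8% with a gene on the same strand (AC040162.1). Of the 3 genes, PSMB8 alone was past the threshold.

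Each immunoproteasome subunit takes the place of a constitutive one, so their ratio per length describes the balance of the RNAs. PSMB8 to PSMB5 was 0.129 in untreated JJ012 (95% interval 0.115 to 0.146) and 0.0706 with melatonin (0.0576 to 0.0858), so the intervals did not overlap. PSMB9 to PSMB6 ran the other way, at 0.198 (0.178 to 0.220) untreated and 0.304 (0.266 to 0.347) with melatonin. PSMB10 to PSMB7 was 0.0725 (0.0607 to 0.0860) and 0.0845 (0.0662 to 0.107), with overlapping intervals. The 3 pairs did not shift together, and the ratio of their sums was 0.124 untreated and 0.138 with melatonin.

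In 143B each pair had overlapping intervals between the libraries. PSMB8 to PSMB5 was 0.106 and 0.0996, PSMB9 to PSMB6 was 0.0567 and 0.0657, and PSMB10 to PSMB7 was 0.0418 and 0.0405, untreated and with melatonin. Constitutive genes thus led in every library and pair. The size of these ratios depends on the length used. Per length of the principal transcript, PSMB8 to PSMB5 in JJ012 was 0.334 untreated and 0.183 with melatonin. PSMB9 to PSMB6 was then 0.498 and 0.76, so the constitutive gene led by less. The order of the libraries within each pair does not depend on length.

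**Figure D4:**
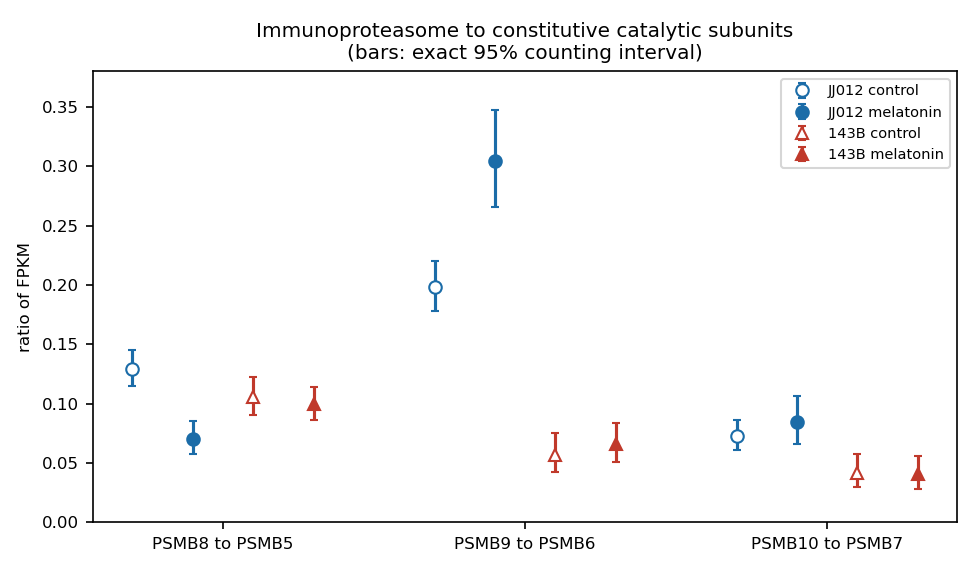
Ratio of FPKM of each immunoproteasome subunit to the constitutive subunit it replaces, in the 4 libraries (circles JJ012, triangles 143B, open untreated, filled melatonin), with exact 95% counting intervals as bars. In JJ012 the PSMB8 ratio is lower with melatonin (0.0706 against 0.129) and the PSMB9 ratio higher (0.304 against 0.198), and the 143B pairs overlap.

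The ATPase ring, which unfolds substrates, differed less between the JJ012 libraries than the beta ring, with a median log2 ratio of -0.20 over its 6 genes. With the length trend removed the gap was smaller, at -0.24 for the ATPases and -0.48 for the core beta genes. PSMC3 alone was past the threshold, at 19.91 FPKM untreated and 11.84 FPKM with melatonin (log2 ratio -0.70), and it went the other way in 143B, at 15.35 and 19.07 FPKM (log2 ratio 0.30). PSMC5 was next at -0.55, and PSMC6 and PSMC1 were at 0.14 and 0.09. With the length trend removed PSMC5 was lowest at -0.53, followed by PSMC2 at -0.47 and PSMC3 at -0.39. PSMC6 and PSMC1 were then at -0.09 and -0.08. Values of PSMC1 are uncertain, since 75.8% of its exon bases overlap NRDE2 on the opposite strand. PSMC5 shares 19.5% with FTSJ3 in the same way.

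The 11 non-ATPase subunits of the cap had a median of -0.16 in JJ012. PSMD13, a subunit of the lid, was the one past the threshold, at 34.84 FPKM untreated and 22.67 FPKM with melatonin (log2 ratio -0.60) and at 20.62 and 21.47 FPKM in 143B (log2 ratio 0.06). At the other end stood the lid subunits PSMD11, at 12.49 and 15.65 FPKM (log2 ratio 0.30), and PSMD6, at 10.72 and 12.84 FPKM (log2 ratio 0.24). The counting intervals of PSMD11 and PSMD6 lay above 0. With the length trend removed PSMD11 was at 0.14 and PSMD6 at -0.05, so the sign for PSMD6 depends on the scale. PSMD14, the deubiquitinase that cuts ubiquitin chains off the substrate, had log2 ratios of -0.37 in JJ012 and -0.34 in 143B. With PSMD2, at -0.27 and -0.30, it was among the members with counting intervals below 0 in both lines. The lowest member of this group by the deposited exonic length, PSMD1, stood at 7.28 and 6.78 FPKM in JJ012 and 5.36 and 6.98 FPKM in 143B. Per length of the principal transcript it was at 34.59 FPKM in untreated JJ012. By that length PSMD12 was lowest in JJ012 (18.72 FPKM untreated) and PSMD11 in 143B (12.85 FPKM untreated).

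Chaperones that build the complex are not part of the finished particle. Of the base chaperones, PSMD10 (also called gankyrin) was at 30.07 FPKM untreated and 22.03 FPKM with melatonin in JJ012, a log2 ratio of -0.43, and at 12.30 and 15.26 FPKM in 143B. PSMD9 and PSMD5 were at log2 ratios of -0.16 and -0.03 in JJ012. None of the 3 passed the threshold.

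The alpha ring is assembled by PSMG1 with PSMG2 and by PSMG3 with PSMG4. PSMG3 was at 22.44 FPKM untreated and 11.90 FPKM with melatonin in JJ012 and at 5.33 and 6.64 FPKM in 143B, with log2 ratios of -0.86 and 0.27. Its partner PSMG4 was at 1.66 and 1.55 FPKM in JJ012 and at 1.86 FPKM in both 143B libraries. PSMG1 stood on the opposite side, at 13.42 and 16.61 FPKM in JJ012 (log2 ratio 0.29), and its partner PSMG2 was at 7.54 and 7.38 FPKM. On this scale neither pair had partners with like ratios in JJ012. With the length trend removed, PSMG3 and PSMG4 stood closer, at -0.53 and -0.36, while PSMG1 and PSMG2 were at 0.65 and -0.37. PSMG2 and PSMG4 share 16.7% and 15.0% of their exon bases with genes on the other strand. PSMG4 has a deposited exonic length of 10415 bases against 838 bases for its principal transcript, and its level per length was 20.61 FPKM in untreated JJ012 on the shorter length.

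The activators were split. PSME1 and PSME2, which form the interferon-inducible PA28 ring linked to antigen processing, were both lower in melatonin-treated JJ012. PSME1 was at 68.06 FPKM untreated and 37.08 FPKM with melatonin (log2 ratio -0.86) and at 21.58 and 23.06 FPKM in 143B (log2 ratio 0.09). PSME2 was at 19.06 and 10.53 FPKM in JJ012 (log2 ratio -0.80) and 7.06 and 6.75 FPKM in 143B (log2 ratio -0.06). The pair kept close ratios in each line. By CPM, PSME1 was 1.84-fold and PSME2 1.81-fold lower in JJ012.

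PSME4, the large nuclear activator also known as PA200, was at 17.83 FPKM in untreated JJ012, 36.25 FPKM with melatonin, 13.86 FPKM in untreated 143B and 17.70 FPKM with melatonin. Both melatonin libraries were above their controls. By CPM it was 2.03-fold higher in JJ012 (log2 1.02, 95% interval 0.96 to 1.08) and 1.28-fold higher in 143B (log2 0.35, 0.28 to 0.43). It spans chr2:53864069-53970993 on the minus strand (hg38) and is one of the longest members, with 10392 exonic bases. With the length trend removed its log2 ratio in JJ012 was 0.69. PSME3, which forms a nuclear activator ring of its own, was at 17.80 and 18.09 FPKM in JJ012 and at 5.26 and 7.78 FPKM in 143B, the highest log2 ratio of any member in 143B (0.49). The inhibitor PSMF1 was at 7.93 and 8.21 FPKM in JJ012 and 13.06 and 12.67 FPKM in 143B, with log2 ratios of 0.04 and -0.04.

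The second comparison asked the same in 143B, and there 0 of the 45 tested members passed the threshold in either direction, against 6.09% of 14135 genes that were higher and 6.65% that were lower, 12.7% in all. The ratios ran from -0.34 in PSMD14 to 0.49 in PSME3, with a median of 0.08 against 0.03 over all genes. By counting error alone, 16 members had intervals above 0 and 6 below, which is 35.6% and 13.3% of the members against 28.4% and 23.5% of all genes. In JJ012 the same count was 5 above and 32 below, 11.1% and 71.1% of the members against 36.9% and 35.2% of all genes. The 6 below in 143B were PSMA6, PSMB1, PSMB7, PSMD2, PSMD12 and PSMD14. The highest after PSME3 were the ubiquitin receptor PSMD4, at 46.02 and 60.69 FPKM (log2 ratio 0.39), PSME4 and PSMD1 (0.33 each).

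Set side by side, the ratio after melatonin was lower in JJ012 than in 143B for 35 of the 45 members (77.8%), against 48.5% of 11822 genes tested in both lines. The median difference, JJ012 minus 143B, was -0.42 for the members and 0.03 for all of these genes. With 1 library per condition the difference between lines was not tested.

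The third comparison set untreated JJ012 against untreated 143B, and it shares its libraries with the first pair of comparisons. Of the 45 members, 24 (53.3%) were higher in JJ012 by at least 0.58, and 5 (11.1%) were lower, against 41.3% and 27.4% of 16929 genes. In either direction this was 64.4% of the members and 68.7% of all genes. By counting intervals, 36 (80.0%) lay above and 7 (15.6%) below 0, against 50.8% and 35.1% of all genes. The median was 0.61 for the members and 0.29 for all genes, a gap of 0.33. On the TPM scale the median of the members was 0.24 and that of all genes 0.04, with 17 members higher and 8 lower. With length removed 12 were higher and 8 lower. In either direction this was 25 of 46 members by TPM, against 74.9% of all genes, and 20 of 45 with length removed, against 62.6%.

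The activators PSME1, PSME2 and PSME3 and the immunoproteasome gene PSMB9 were among those with the largest excess in JJ012. PSMB9, at 8.12 against 1.07 FPKM, was 7.56-fold higher by CPM (log2 2.92, 95% interval 2.52 to 3.34), the largest ratio of any member. PSMB3, at 73.37 against 16.87 FPKM, was 4.35-fold higher, and PSMG3, at 22.44 against 5.33 FPKM, was 4.21-fold higher. PSMC4 was at 34.00 against 9.95 FPKM, a 3.42-fold difference. These 4 genes come from the immunoproteasome, the beta ring, the assembly factors and the ATPase ring.

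The 5 members lower in JJ012 were PSMC1, PSMC6, PSMD2, PSMD5 and PSMF1. PSMD2 was at 37.77 against 63.01 FPKM (log2 ratio -0.72), the base chaperone PSMD5 at 8.40 against 15.44 FPKM (-0.81), the ATPase PSMC6 at 7.43 against 11.81 FPKM (-0.60) and the inhibitor PSMF1 at 7.93 against 13.06 FPKM (-0.65). PSMC1 (-0.998) is uncertain for the shared exons given above. PSMA7, the most abundant member, was at -0.45. PSMB5 was nearly level by FPKM, at 41.08 against 36.81 FPKM (log2 ratio 0.15). With the length trend removed, PSMB5 at -0.78, PSMA7 at -1.37 and PSMA3 at -0.92 were also past the threshold as lower in JJ012.

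A list of 35 genes around the proteasome, with no PSM names, covered its regulators, bound enzymes, ubiquitin genes and partners. In JJ012, 34 were tested, 7 were higher (20.6%) and 2 lower (5.88%), against the 19.6% and 18.6% of all genes given above. With the length trend removed, 2 were higher and 8 lower, or 10 of 34 in either direction, against 34.5% of all genes. The median of the list was 0.20. The 7 were the regulators DDI2 and AKIRIN2 and the proteasome-bound proteins UCHL5, UBE3C, UBE3A, ECPAS and ZFAND5. In 143B, 33 were tested against a background of 6.09% higher and 6.65% lower among all genes, and UBQLN4, a shuttle that carries ubiquitinated proteins to the cap, was the 1 higher (3.03%), at 2.06 and 4.12 FPKM (log2 ratio 0.74), with 0 lower.

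Among the regulators, NFE2L1, the transcription factor known to induce proteasome genes, was at 102.44 FPKM untreated and 126.28 FPKM with melatonin in JJ012 and at 36.68 and 36.78 FPKM in 143B, with log2 ratios of 0.30 and 0.00. DDI2, the protease that releases NFE2L1 from its membrane-bound form, was at 2.85 and 7.16 FPKM in JJ012 (log2 ratio 1.08) and at 30.29 and 27.23 FPKM in 143B (-0.15). NFE2L2 was at 6.99 and 9.22 FPKM in JJ012 and 7.02 and 6.27 FPKM in 143B. NGLY1, an enzyme that removes N-glycans and acts on NFE2L1, was at 18.87 and 12.78 FPKM in JJ012 (log2 ratio -0.53) and 85.71 and 71.93 FPKM in 143B (-0.25). NFE2L1, NFE2L2 and NGLY1 did not reach the threshold in either line. AKIRIN2, which brings proteasomes into the nucleus, was at 21.49 and 39.38 FPKM in JJ012 (log2 ratio 0.84) and 23.82 and 21.82 FPKM in 143B.

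Of the proteasome-bound enzymes, the deubiquitinase UCHL5 was at 7.02 and 11.68 FPKM in JJ012 (log2 ratio 0.66), the ligase UBE3C at 10.10 and 16.85 FPKM (0.69) and the ligase UBE3A at 5.45 and 9.97 FPKM (0.77). The adaptor ECPAS was at 21.21 and 35.18 FPKM (0.70) and ZFAND5, an activator of the particle, at 26.65 and 41.26 FPKM (0.61). In 143B these 5 lay between -0.24 and 0.25. With the length trend removed, these 5 lay between 0.38 and 0.53 in JJ012, below the threshold, while DDI2 at 0.74 and AKIRIN2 at 1.13 stayed above it. The ubiquitin gene UBB, at 12.32 and 4.11 FPKM in JJ012 (log2 ratio -1.38), had the lowest ratio of the list.

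Of the list, 4 genes are subunits or assembly factors that carry other names. SEM1, a small lid subunit, was at 6.08 and 4.26 FPKM in JJ012 (log2 ratio -0.43) and at 2.87 and 3.28 FPKM in 143B (0.15). POMP, which helps the core mature, was at 19.94 and 14.65 FPKM in JJ012 (-0.42) and 10.91 and 10.86 FPKM in 143B (-0.01). ADRM1, a ubiquitin receptor of the cap, was at 45.60 and 43.38 FPKM in JJ012 (-0.07) and 56.71 and 72.16 FPKM in 143B (0.34). PAAF1, which takes part in assembly of the base, was at 3.68 and 4.93 FPKM in JJ012 (0.34) and 1.27 and 1.71 FPKM in 143B (0.26). None of the 4 passed the threshold in either line.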

How the data were processed

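RNA from 4 suspension cultures was poly(A)-selected and sequenced as paired ends. The submitters' processing notes name cutadapt 1.9.1, HISAT2 2.2.1, HTSeq 0.6.1, DESeq2 and hg38. The strand setting is not given in the sources used here. The authors deposited counts per gene without normalization, and FPKM, which equal these counts divided by exonic length and library total within 0.005. Columns were matched to samples by cell line, with the suffix T read as melatonin-treated. Other annotation columns of the table were not used beyond symbol, position and length.

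Log2 ratios used FPKM plus 1 over genes with at least 1 FPKM in 1 of the 2 libraries, called at an absolute value of 0.58. The exact Clopper-Pearson 95% interval of the CPM ratio covers counting error only. With 1 library per condition no count model was fitted, and edgeR 4.0.16 (R 4.3.3) gave TMM factors only. Shared exons and principal transcripts came from GENCODE 29, where 71.5% of 58299 shared genes had the same start and end as in the table, and promoter windows from RefSeq (GRCh38.p14). The alternatives were a pseudocount of 0.1, TPM, CPM, TMM, centring, removal of the length trend (running median over 501 genes), no filter, a filter of 5 FPKM, a threshold of 1 and the counting interval. Principal transcript lengths and the restriction to members with under 5% shared exon were added after seeing the data. The calculation was checked on simulated counts. Python 3.11.15 was used, with scipy 1.17.1 for the intervals and numpy 2.4.6, pandas 2.3.3 and, for plots, matplotlib 3.10.9.

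The members, lists and tests were chosen with earlier results of these data known. Every member could be named. Values in each library were given for members past the threshold after melatonin, catalytic and tissue-specific subunits, the highest and lowest members of a subcomplex, the listed partners past the threshold, and NFE2L1, NFE2L2, DDI2, ADRM1, SEM1 and POMP. Other members, and the listed partners NGLY1, PAAF1, TAP1, NLRC5 and IRF1, were named after their values were seen. Some genes of the partner list are not reported here.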

Additional observations from a re-analysis of the deposited data

Results flagged for a closer look

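For 12 members the ratio after melatonin lay on opposite sides of 0 in the 2 lines, below 0 in JJ012 and above 0 in 143B, with both counting intervals clear of 0. The difference between the lines was not tested, since each condition had 1 library. On the log2 scale of FPKM plus 1, the difference (JJ012 minus 143B) was -0.74 in PSMA4 and -0.50 in PSMA5 of the alpha ring. In the beta ring it was -0.65 in PSMB2, -1.10 in PSMB4 and -0.63 in PSMB5. In the ATPase ring it was -0.999 in PSMC3 and -0.81 in PSMC5. In the cap it was -0.42 in PSMD1, -0.36 in PSMD3 and -0.76 in PSMD4. In the chaperones it was -0.72 in PSMD10 and -1.13 in PSMG3. These 12 were 26.67% of the 45 members tested in both lines, against 10.48% of the 11822 genes tested in both, and a further 11.01% of those genes had intervals above 0 in JJ012 and below 0 in 143B, as 0 members did. PSMC5 and PSMD1 share 19.5% and 10.8% of their exon bases with a gene on the other strand.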

How the results depend on the processing

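No paired analysis was possible because each condition had 1 library, and no library could be left out. Calls of members in JJ012 were 12 of 45, against 38.2% of all genes. They were 7 of 46 on the TPM scale (52.8% of all genes) and 5 of 45 with the length trend removed (34.5%). At a threshold of 1 they were 1 of 45 (14.7%), and where the counting interval excluded no change, 37 of 45 (72.2%). In 143B (0 of 45) they were 22 by the counting interval, against 52% of all genes, and 0 under the other 9 planned settings. Against untreated 143B (29 of 45 members and 68.7% of all genes), 14 passed a threshold of 1, against 47.2% of all genes. Of the 28 members with under 5% shared exon, 19 passed 0.58 (a setting added after seeing the data), against 68.7% of all genes. The partner list in JJ012 (9 of 34, 38.2% of all genes) gave 15 of 35 by TPM, against 52.8% of all genes. With the length trend removed it gave 10 of 34 (2 higher and 8 lower, against 7 and 2), and all genes 34.5%. It gave 2 of 34 at a threshold of 1 (14.7% of all genes) and 32 of 34 by the interval (72.2%). In 143B the list (1 of 33, 12.7% of all genes) gave 2 of 33 with a pseudocount of 0.1, against 20.9% of all genes. It gave 2 of 35 by TPM (28.6% of all genes) and 3 of 35 by CPM (13.9%). With a filter of 5 FPKM it gave 0 of 28 (7.71%), at a threshold of 1 it gave 0 of 33 (4.45%), and by the interval 19 of 33 (52%). The median of the members in JJ012 was -0.063 by TPM, and the difference between the lines -0.14, where all genes stood at 0.27. Between the untreated lines the median was 0.24 by TPM, 0.41 by TMM, 0.33 centred and 0.19 with length removed. The share of counts in untreated JJ012, treated JJ012, untreated 143B and treated 143B was 0.448%, 0.366%, 0.320% and 0.336% without mitochondrially encoded genes, 0.513%, 0.408%, 0.368% and 0.386% without the 50 genes with the most counts, and 0.450%, 0.400%, 0.414% and 0.415% of TPM. Medians of subcomplexes changed sign in 13 cases. In JJ012 with TPM they were 0.062 for the ATPases, 0.11 for the non-ATPases, 0.060 for the base chaperones and 0.19 for the assembly chaperones, and with length removed -0.25 for PSMF1. In 143B the alpha ring was at -0.049 by TPM and -0.018 with length removed, and the non-ATPases were at -0.040 by TPM, -0.019 by TMM and -0.012 centred. Between untreated lines the alpha ring was at -0.072 by TPM, and with length removed the beta ring was at -0.13 and the ATPases at -0.30. The causes of these shifts were not tested. Depth limits PSMB9 and PSMB10 in 143B most, with 37 to 77 counts.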

Other observations

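Transcripts that carry the name of a proteasome gene without being members were also counted. The 42 PSM pseudogenes together held 118 counts in untreated and 96 in melatonin-treated JJ012, and 101 and 99 in 143B, with 32 at or below 3 counts in every library. The highest was PSMC1P1, at 51 counts in untreated 143B. Among 7 antisense and divergent transcripts, PSMA3-AS1 was the most abundant, at 847 and 594 counts in JJ012 and 970 and 1105 counts in 143B. PSMG3-AS1 had 112 and 23 counts in JJ012 and 28 and 67 counts in 143B, the same order of the libraries within each line as PSMG3. PSMD6-AS2 had 8 and 33 counts in JJ012 and 325 and 158 counts in 143B, while PSMD6 stood at 10.72 and 12.84 FPKM and at 10.01 and 10.12 FPKM.

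Of the genes linked to the immunoproteasome, TAP1, the peptide transporter gene beside PSMB9, was at 13.17 and 8.79 FPKM in JJ012 and 9.21 and 8.21 FPKM in 143B. NLRC5 was at 3.77 and 3.32 FPKM in JJ012 and 0.33 and 0.19 FPKM in 143B, and IRF1 stayed below 1 FPKM in every library. TAP1 did not pass the threshold after melatonin in either line, nor did NLRC5 in JJ012.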
